A study of Mus musculus with 30 samples.

Results

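Replication-dependent histone genes encode the core histones H2A, H2B, H3 and H4, around which DNA is wound, and the linker histones H1, which bind the DNA between nucleosomes. They were taken as the protein-coding genes whose symbol begins with Hist1h, Hist2h, Hist3h or Hist4h and which had at least 300 counts summed over the 30 libraries. This gave 27 of the 51826 genes in the count table, out of 65 protein-coding genes in it with such a symbol. The 27 members were 5 of 6 H1 genes, 2 of 18 H2A genes, 5 of 16 H2B genes, 4 of 12 H3 genes and 11 of 13 H4 genes. Just inside the minimum lay Hist1h3c with 342 counts and Hist1h1b with 461, and just outside lay Hist1h3b with 283 and Hist1h2ab with 275.

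The samples were left lobes of the liver, frozen, from male mice whose strain is labelled C57BL16. One arm was exposed to 56Fe, an iron nucleus stripped of electrons and a component of space radiation, at a dose of 0.2 Gy and an energy of 600 MeV/n; the control arm was not irradiated. Lobes were taken 1, 2, 4, 9 and 12 months (30, 60, 120, 270 and 360 days) later, with 3 livers labelled as biological replicates in each of the 10 groups. Each liver was sampled as 2 thin frozen slices, so a library holds all cell types of a small piece of tissue.

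Messages of this family are made mainly in S phase, when new DNA needs new nucleosomes. Instead of a poly(A) tail they end just after a conserved stem-loop, which is bound by the stem-loop binding protein (SLBP) and cut with the help of the U7 small nuclear RNP. Some of these genes also give longer polyadenylated transcripts in cells that do not divide, and most hepatocytes of an adult liver do not divide. Ribosomal RNA was removed with Ribo-Zero before the libraries were made, so transcripts without a poly(A) tail could be counted.

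The stem-loop is the element that sets this family apart, and it is printed here for the genes with which the results deal. Positions are on GRCm38, the strand is that of the gene, each line reads 5′ to 3′ in DNA letters from the Gencode M21 transcript, and capitals mark the 4 bases of the loop.
Hist1h1c (H1), chr13:23739512-23739527, plus strand: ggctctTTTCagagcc
Hist1h1e (H1), chr13:23621782-23621797, minus strand: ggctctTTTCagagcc
Hist1h3a (H3), chr13:23761890-23761905, minus strand: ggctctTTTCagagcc
Hist1h3e (H3), chr13:23561903-23561918, minus strand: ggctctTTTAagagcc
Hist1h4c (H4), chr13:23698089-23698104, minus strand: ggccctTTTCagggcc
Hist1h4f (H4), chr13:23551291-23551306, minus strand: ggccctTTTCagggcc
Hist1h4h (H4), chr13:23531458-23531473, plus strand: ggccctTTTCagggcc
Hist2h4 (H4), chr3:96262939-96262954, minus strand: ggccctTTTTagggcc
Hist1h4j (H4), chr13:21735437-21735452, plus strand: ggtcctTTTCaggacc
Hist2h2ac (H2A), chr3:96220418-96220433, minus strand: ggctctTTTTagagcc
The pattern searched on the transcript strand was GG, 2 free bases, CTTTT, 1 free base, A, 3 free bases and CC. It was present in the models of 21 of the 27 members, and in 0.200% of the 141767 transcripts of the annotation. The 21 copies fell into 6 sequences, and in all 21 the bases before the loop paired in full with those after it. The search itself fixed part of this pairing: GG with CC, and the T before the loop with the A after it. Only the other pairs were free to fail. The copy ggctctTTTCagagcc was shared by 7 members (3 H1, 1 H2A, 2 H2B and 1 H3 gene), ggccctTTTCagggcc by 6 members, all H4, and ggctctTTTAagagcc by 4 members, of which 3 encode H3. Where the loop lay in the model differed: 13 members had at least 300 annotated bases after it, and 7 had fewer than 100.

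The pattern was not found in the models of Hist1h2bc, Hist2h2be, Hist1h4a, Hist1h1a, Hist1h4k and Hist1h1b. The models of Hist1h4k and Hist1h1b end at the stop codon, so they could not hold it. By contrast, the models of Hist1h2bc, Hist2h2be and Hist1h4a run on for 742, 2192 and 154 bases past the stop codon, and that of Hist1h1a for 48. The model of Hist1h2bc holds 1156 exonic bases spread over 23684199 to 23692908 on chromosome 13. Only transcript models were searched, so a stem-loop in a stretch that the model leaves out would be missed.

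Most of the family sits in 1 cluster: 22 members lie on chromosome 13 between 21735064 and 23764406, 3 on chromosome 3, 1 on chromosome 6 (Hist4h4) and 1 on chromosome 11 (Hist3h2a). RefSeq promoters (GRCm38.p6, 250 bases before to 50 after the start) were matched for 22 members and searched on both strands for 4 short motifs, none of which contains another. CCAAT was present in 15 of the 22 (68.2%) and in 37.4% of all 32851 promoters of that length. TATAAA was present in 14 (63.6%), against 13.6% of all promoters. The octamer ATTTGCAT, long known from H2B promoters, was present in 4 (18.2%, against 1.74%), namely both H2A and 2 of the 3 H2B promoters searched. AAACACA, known as the H1 box, was present in 4 of the 5 H1 promoters and in none of the other 17, against 7.18% of all promoters. The 250 bases before the start are shown for the 2 linker histone genes that fell at month 9, with the motif matches in capitals.
Hist1h1c, chr13:23738557-23738806, plus strand: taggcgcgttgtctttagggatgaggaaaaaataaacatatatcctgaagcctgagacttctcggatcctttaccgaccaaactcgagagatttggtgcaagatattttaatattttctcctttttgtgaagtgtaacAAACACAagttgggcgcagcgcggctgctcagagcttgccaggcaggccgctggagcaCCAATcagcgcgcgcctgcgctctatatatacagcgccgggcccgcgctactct
Hist1h1e, chr13:23622559-23622808, minus strand: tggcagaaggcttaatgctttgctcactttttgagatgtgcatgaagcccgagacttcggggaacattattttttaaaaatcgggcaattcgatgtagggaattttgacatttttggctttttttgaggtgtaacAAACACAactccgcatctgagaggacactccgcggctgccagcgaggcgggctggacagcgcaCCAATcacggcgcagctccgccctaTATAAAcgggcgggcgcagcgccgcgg
In both, AAACACA stands before CCAAT, and in Hist1h1e a TATAAA follows; these are matches of letters and not tests of binding.

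Near-identical copies limit what can be counted. Windows of 50 bases, the length of a read, were compared between all annotated transcripts, and the median member shared 31.5% of its windows with another gene. The reads were paired, which single windows do not model, so these shares are not shares of reads lost. Hist1h4n shared 85.6%, Hist1h3e 73.4%, Hist1h4k 71.5% and Hist2h2ac 55.0%, so their values are uncertain, while Hist1h1a, Hist1h1b and Hist2h2be shared none. The 8 histone genes of the table listed at 0 counts shared at least 88.7%. The exons of Hist1h1e and Hist1h2be overlap each other, and both overlap Gm11398, all on the same strand. Those of Hist3h2a overlap Trim17 on the same strand. Those of Hist2h2ac and Hist3h2a each overlap a predicted gene on the opposite strand. The reads of these members cannot be cleanly told apart from those of the overlapping genes either.

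The libraries held 7995248 to 20215995 counts, of which the members took 3505 to 9005 counts (0.0262% to 0.0481%). The long non-coding RNA Gm26917 took 3.04% to 7.57% of counts at months 1 and 2 and 0.452% to 2.04% at months 4 to 12. A histone difference between these times and this change in library make-up therefore cannot be told apart. The summed level of 8 hepatocyte markers was 40840 to 124000 CPM over the libraries. Because the samples are pieces of whole tissue, fewer cells of a type and less RNA per cell cannot be told apart. Levels below are CPM, counts scaled to library size with TMM factors, and group values are means ± SD of 3 libraries.

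A few members carried most of the signal. Hist1h2bc (H2B) took 22.4% of the members' counts, Hist1h1c (H1) 17.95%, Hist1h1e (H1) 12.3%, Hist1h4h (H4) 11.2%, Hist1h4d (H4) 9.41% and Hist1h4c (H4) 7.15%, which is 80.4% together. Per kilobase of exon, Hist1h4h stood first at 90.0 CPM per kb, followed by Hist1h2bc at 74.3, Hist1h1c at 44.9, Hist1h4c at 33.2, Hist1h4d at 31.8 and Hist1h1e at 25.2 CPM per kb. At the other end Hist3h2a (H2A) had 0.581 CPM per kb. The leading H3 gene, Hist1h3e, had 9.38 and the leading H2A gene, Hist2h2ac, 3.43 CPM per kb. Some models hold long stretches past the stem-loop, so a level per length depends on which transcript end is in use.

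**Figure D1:**
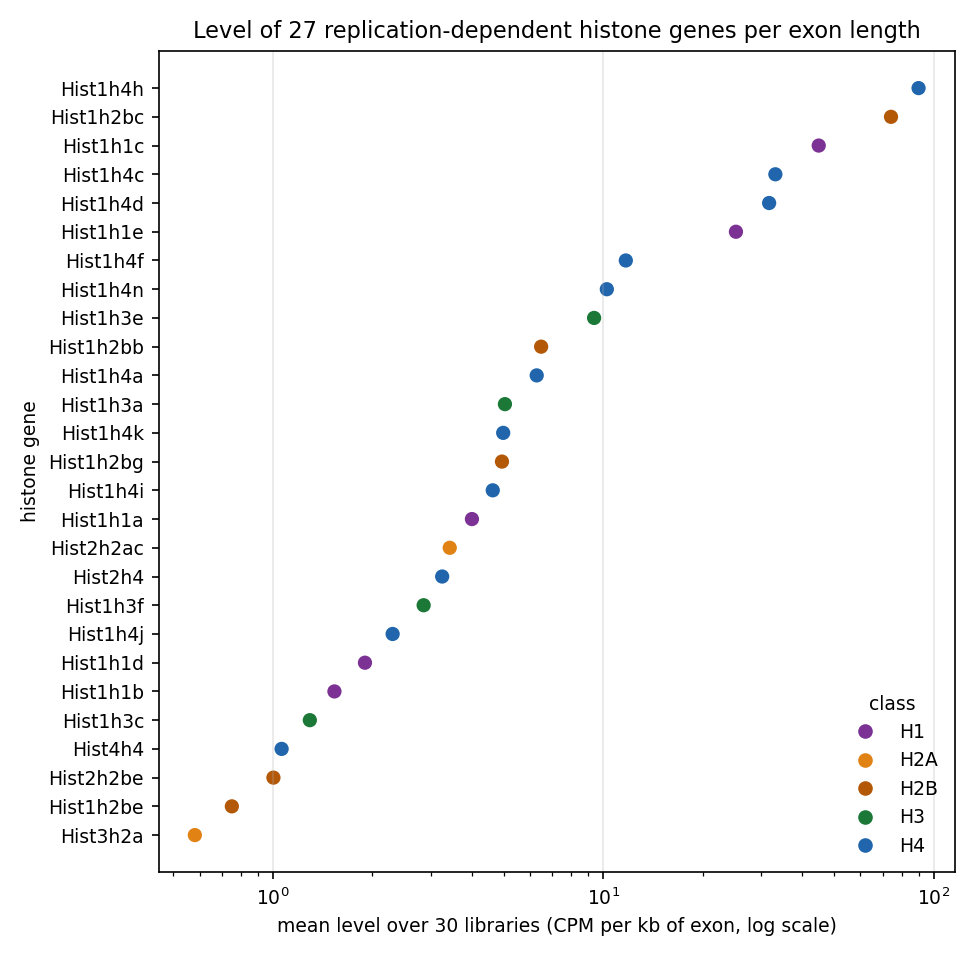
Mean level of each of the 27 histone genes over 30 libraries (horizontal axis, CPM per kb of exon, log scale), one gene per row, coloured by histone class. Hist1h4h (90.0 CPM per kb) and Hist1h2bc (74.3) lead, and Hist3h2a (0.581) is lowest.

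Of the 5 times, month 9 held most of the differences between the arms. For these comparisons, fell and rose mean lower and higher in 56Fe than in control livers of the same month, not a change over time. At month 9, 6 of the 27 members fell and 0 rose (22.2%), where 1.66% of the 19685 genes tested were called, 0.498% lower and 1.16% higher (edgeR quasi-likelihood test, adjusted p under 0.05 over all genes). They were the linker histone genes Hist1h1c and Hist1h1e, the H3 gene Hist1h3a and the H4 genes Hist1h4c, Hist1h4f and Hist1h4h. The log2 fold change was below 0 in 25 of 27 members, against 49.5% of all genes, and its median was -0.71, against 0.00 over all genes. In 15 members every 56Fe library lay below every control library, which 8.77% of all genes also showed.

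Hist1h4h, the member highest per length, had 24.5, 45.1 and 33.4 CPM in the 3 month 9 56Fe livers, against 67.6, 63.6 and 70.6 CPM in the month 9 control livers. All 3 irradiated livers lay well below the controls, and the spread among them was the wider one. The log2 fold change was -0.97 ± 0.16 (SE), with an edgeR adjusted p of 0.00471. Hist1h4c, another H4 gene, had 21.4, 28.6 and 22.7 CPM in 56Fe livers, against 39.9, 38.0 and 43.7 CPM in control livers. Again the groups did not overlap, and the log2 fold change was -0.74 ± 0.13 (SE, edgeR adjusted p 0.00823). Hist1h4f, a weaker H4 gene, had 2.85, 4.06 and 3.49 CPM in 56Fe livers, against 7.69, 7.58 and 5.92 CPM in control livers. Its log2 fold change was -1.02 ± 0.26 (SE, edgeR adjusted p 0.0430).

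Hist1h1c had 34.6, 57.4 and 49.1 CPM in 56Fe livers at month 9, against 88.4, 65.9 and 87.3 CPM in control livers. Control replicate 2 was the lowest control and lay near the highest irradiated liver. The log2 fold change was -0.78 ± 0.20 (SE, edgeR adjusted p 0.0460). Hist1h1e had 19.3, 29.2 and 26.6 CPM in 56Fe livers, against 52.6, 34.5 and 47.2 CPM in control livers, with a log2 fold change of -0.83 ± 0.20 (SE, edgeR adjusted p 0.0289). Control replicate 2 was again nearest to the irradiated livers. Hist1h3a, a core histone gene of low level, had 1.04, 3.53 and 1.37 CPM in 56Fe livers, against 3.87, 5.28 and 4.17 CPM in control livers. Replicate 2 of the 56Fe livers came close to the lowest control, and the log2 fold change was -1.16 ± 0.30 (SE, edgeR adjusted p 0.0446).

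Other members did not pass the test, and most of their values lay on the same side; the H4 gene Hist1h4n had the opposite sign, at 4.22 ± 1.26 CPM in 56Fe and 2.74 ± 0.697 CPM in control livers (log2 fold change 0.63 ± 0.40, edgeR adjusted p 0.471). Hist1h1d (H1) had 8.39 ± 5.73 CPM in 56Fe and 16.9 ± 1.41 CPM in control livers at month 9, a log2 fold change of -1.01 ± 0.36 (SE, edgeR adjusted p 0.153). Hist1h3e, the leading H3 gene, had 5.23 ± 2.38 and 8.62 ± 1.04 CPM in 56Fe and control livers (log2 fold change -0.71 ± 0.23, edgeR adjusted p 0.104). Hist2h2ac, the leading H2A gene, had 1.46 ± 0.438 CPM in 56Fe and 2.65 ± 0.383 CPM in control livers (log2 fold change -0.85 ± 0.35, edgeR adjusted p 0.214). Hist1h4d, the second H4 gene by counts, had 31.9 ± 4.29 and 43.3 ± 5.13 CPM in 56Fe and control livers (log2 fold change -0.44 ± 0.15, edgeR adjusted p 0.114).

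None of the 5 H2B genes was called. Hist1h2bc, the member with the most counts, had 132.1, 100.2 and 107.1 CPM in 56Fe livers at month 9, against 117.2, 108.4 and 121.6 CPM in control livers. The groups overlapped, and the log2 fold change was -0.03 ± 0.16 (SE, edgeR adjusted p 0.953). Hist2h2be, the other H2B gene whose model lacks the stem-loop pattern, had 2.39 ± 0.409 and 2.47 ± 0.651 CPM in 56Fe and control livers (log2 fold change -0.04 ± 0.31). Hist1h2be, whose model holds the pattern, had 3.35 ± 0.617 CPM in 56Fe and 3.06 ± 0.439 CPM in control livers (log2 fold change 0.13 ± 0.26). Hist1h2bb had 2.81 ± 1.304 CPM in 56Fe and 3.90 ± 0.961 CPM in control livers, a log2 fold change of -0.47 ± 0.32 that was close to that of Hist1h4d. Hist1h2bg had 2.70 ± 1.03 CPM in 56Fe and 3.16 ± 0.1795 CPM in control livers (log2 fold change -0.22 ± 0.30). The median log2 fold change of the 5 H2B genes was -0.04, against -0.90 for the 5 H1, -0.70 for the 2 H2A, -1.02 for the 4 H3 and -0.57 for the 11 H4 genes. The difference between classes was not tested. Members with the pattern had a median of -0.74 (21 genes) and those without it -0.46 (6 genes). Of those 6, Hist1h1b, Hist1h1a and Hist1h4a had -1.24, -0.90 and -0.57. The model of Hist1h1b ends 0 bases past the stop codon, so the lack of the pattern there says nothing of its transcripts. Those of Hist1h1a and Hist1h4a run on for 48 and 154 bases. In Hist1h1c 880 annotated bases follow the stop codon and 840 follow the loop, so stretches of that length can hold the pattern. The difference between members with and without the pattern was not tested.

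**Figure D2:**
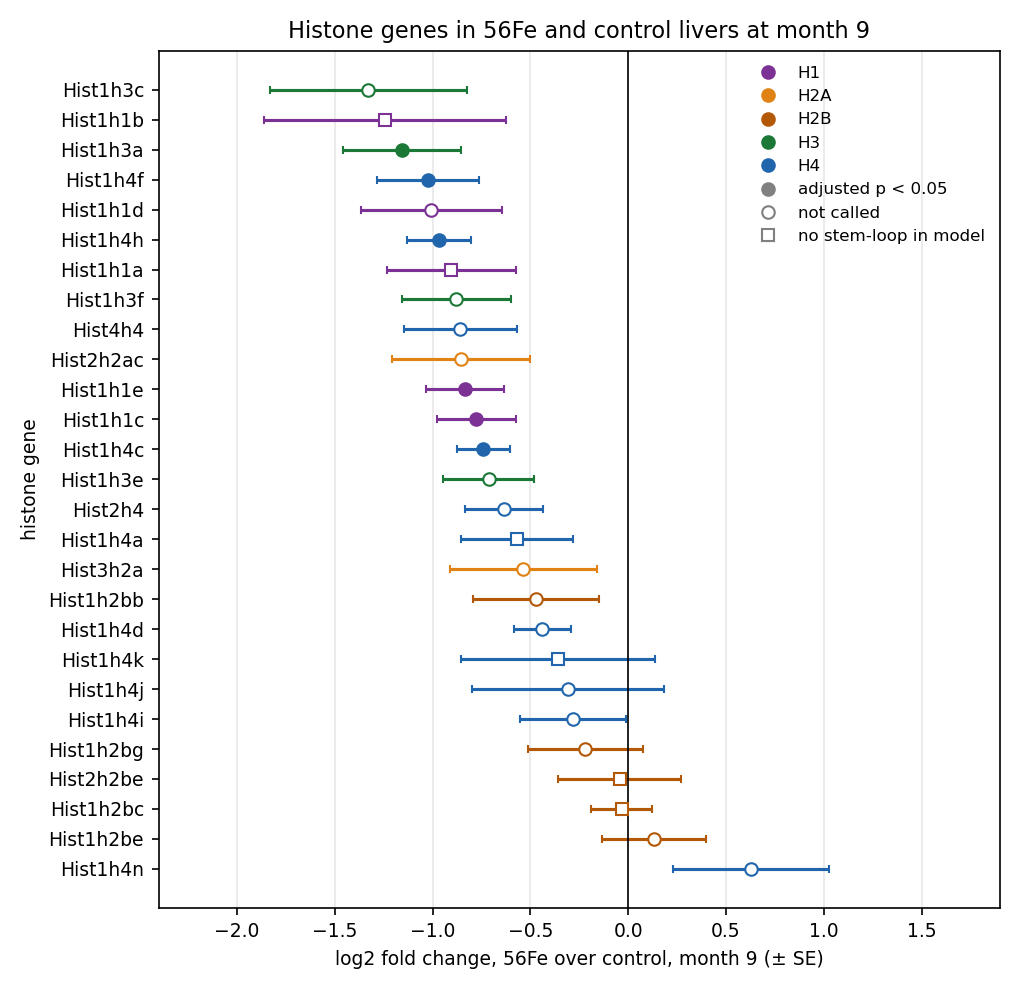
Log2 fold change of each of the 27 histone genes at month 9, 56Fe over control (horizontal axis; points are edgeR estimates, bars are ± 1 SE), coloured by class, filled where the adjusted p is under 0.05 and square where the transcript model lacks the stem-loop pattern. The 6 filled points lie between -1.16 and -0.74, and Hist1h2bc and Hist2h2be lie near 0.

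Summed over the 27 members, the month 9 56Fe livers had 302.6, 370.3 and 328.2 CPM, against 505.3, 442.2 and 498.5 CPM in control livers, a ratio of 0.692. Without Hist1h2bc the sums were 220.6 ± 49.8 and 366.3 ± 28.7 CPM in 56Fe and control livers (0.602). The H1 sum was 83.1 ± 23.9 CPM in 56Fe livers and 147.4 ± 21.4 CPM in control livers (a ratio of 0.564). The H3 sum was 9.82 ± 4.34 CPM in 56Fe and 18.2 ± 2.43 CPM in control livers (0.540), and the H4 sum was 114.0 ± 19.6 CPM in 56Fe and 184.1 ± 9.96 CPM in control livers (0.620). Of the 5 class sums the H2B sum alone overlapped, at 124.4 ± 14.8 in 56Fe and 128.3 ± 6.53 CPM in control livers. Members with at most 10% shared windows, for which read sharing matters least, summed to 67.3 ± 19.99 CPM in 56Fe and 116.5 ± 13.7 CPM in control livers (0.578). The 38 histone genes under the minimum of 300 counts summed to 6.602 ± 1.11 CPM in 56Fe and 6.95 ± 1.32 CPM in control livers.

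Mean levels over the 10 groups were lowest in the month 9 56Fe livers for 10 of the 27 members (10.97% of all genes), among them Hist1h1c, Hist1h1e and Hist1h4f. They were highest in the month 9 control livers for 9 members (9.37% of all genes), among them Hist1h4h, Hist1h4c, Hist1h4d and Hist1h3a. The month 1 control livers were the lowest group for as many members, 10, and the month 1 56Fe livers the highest for 7. The shares of all genes for these month 1 counts are not given here, so nothing particular to the members is read from them. One irradiated liver weighed heavily: 56Fe replicate 1 was the lowest of the 6 month 9 libraries for 19 of 27 members and for all 6 called ones, and for 23.7% of all genes. Without it 0 members were called, and without 56Fe replicate 2, the irradiated liver with the highest sum, 12 were; without control replicate 3 the count was 1, without control replicate 1 or 56Fe replicate 3 it was 2, and without control replicate 2 it was 3. It was also 3 without control replicate 1 or 56Fe replicate 2 of month 1, or control replicate 3 of month 2. The shares of all genes called in these refits are not given here. A change particular to the members and a general gain or loss of calls therefore cannot be told apart. Fitting the 6 month 9 libraries alone called 0 members and 0 genes in all.

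**Figure D3:**
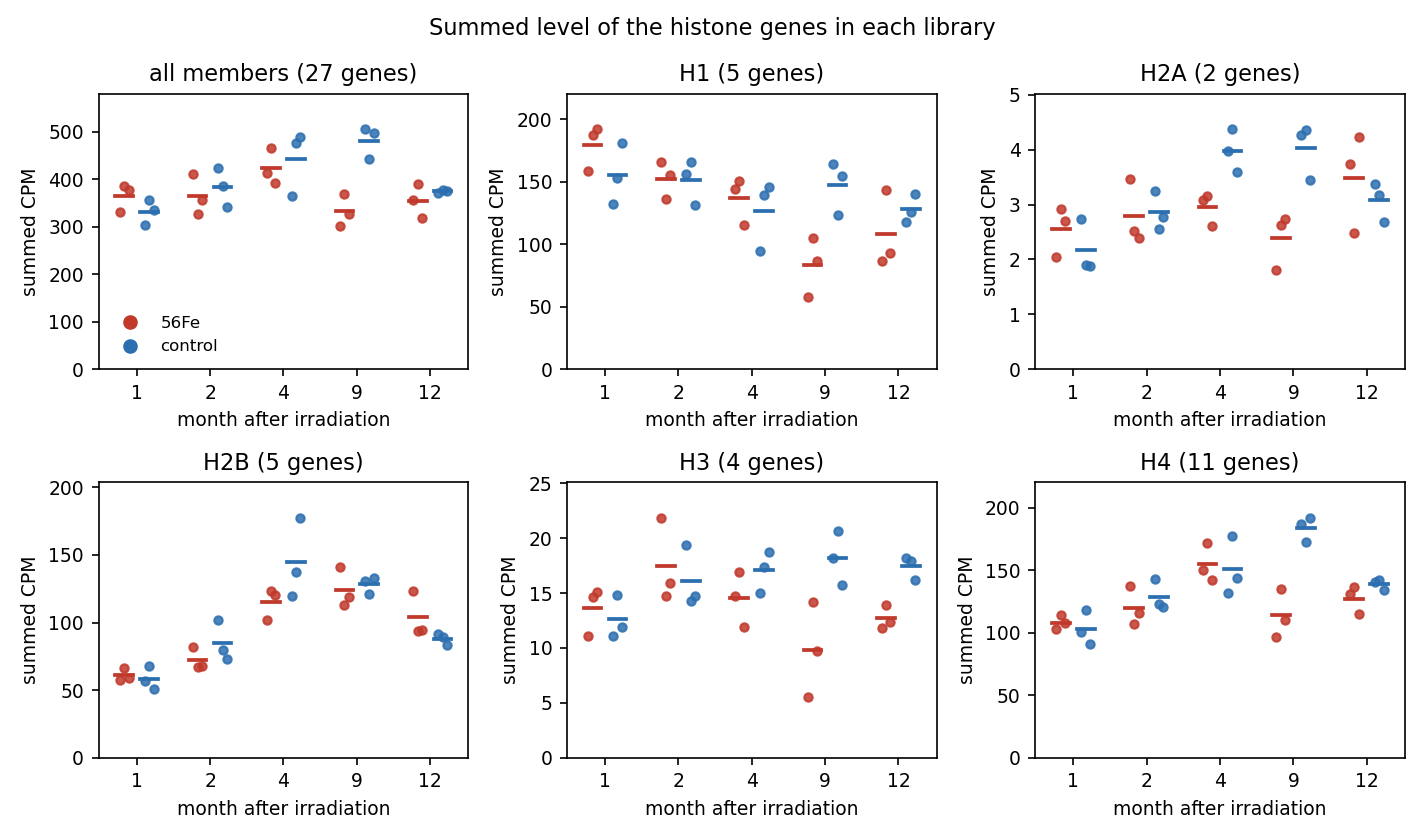
Summed level of the 27 histone genes and of each class (vertical axes, summed CPM, from 0) in each of the 30 libraries by month after irradiation; points are libraries, bars are group means, red is 56Fe and blue is control. At month 9 the 56Fe and control libraries do not overlap for all members, H1, H2A, H3 and H4, and overlap for H2B.

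At the other times few members differed. At month 1, 1 member rose and 0 fell (3.70%; 4.6% of all genes were called, 1.49% higher): Hist2h4, an H4 gene outside the main cluster that shares only 1.01% of its windows. It had 6.04, 7.32 and 6.65 CPM in 56Fe livers at month 1, against 3.20, 4.27 and 3.67 CPM in control livers. The groups were clearly apart, with a log2 fold change of 0.85 ± 0.21 (SE, edgeR adjusted p 0.0167). Next by p were the H4 gene Hist1h4i, with 4.18 ± 0.644 CPM in 56Fe and 2.56 ± 0.813 CPM in control livers (log2 fold change 0.72 ± 0.28, edgeR adjusted p 0.168), and Hist1h2bb (0.66 ± 0.37, edgeR adjusted p 0.392). The summed level was 364.9 ± 28.8 CPM in 56Fe and 332.2 ± 26.97 CPM in control livers, with overlap. Without control replicate 1 or 56Fe replicate 3 of month 1 the Hist2h4 call was lost, with 0 members called, as it was with the Gm26917 share as a covariate and without a low-count filter.

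At month 2 the edgeR test called 0 members (4.37% of all genes), 0 had an unadjusted p under 0.05 (21.6% of all genes), and DESeq2 also called 0. The smallest p belonged to Hist1h4n, with 3.01 ± 0.593 CPM in 56Fe and 5.08 ± 1.79 CPM in control livers (log2 fold change -0.75 ± 0.40, edgeR adjusted p 0.276). Hist1h2bc had 59.6 ± 8.08 and 73.0 ± 10.3 CPM in 56Fe and control livers (log2 fold change -0.29 ± 0.16, edgeR adjusted p 0.288), and Hist1h4c had a log2 fold change of -0.20 ± 0.14.

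At month 4 edgeR called 0 members (3.6% of all genes), with 2 at an unadjusted p under 0.05 (19.1% of all genes) and 0 by DESeq2. Hist1h1a, an H1 gene, had 2.54, 2.21 and 2.28 CPM in 56Fe livers, against 3.44, 4.23 and 4.46 CPM in control livers. The groups did not overlap, but the log2 fold change of -0.78 ± 0.33 (SE) did not pass (edgeR adjusted p 0.184). Hist1h2bc had 102.7 ± 10.3 CPM in 56Fe and 131.8 ± 28.6 CPM in control livers (log2 fold change -0.36 ± 0.16, edgeR adjusted p 0.202), and Hist1h3f had a log2 fold change of -0.50 ± 0.27.

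At month 12 edgeR called 0 members and 0 of all genes (0%), with 5 members at an unadjusted p under 0.05 (13.5% of all genes) and 0 members by DESeq2. Hist1h1e had 24.6, 39.1 and 26.8 CPM in 56Fe livers, against 44.0, 40.8 and 58.2 CPM in control livers. All 3 irradiated livers lay below the controls, the nearest pair being 39.1 and 40.8 CPM, and the log2 fold change was -0.66 ± 0.20 (SE, edgeR adjusted p 0.159). Hist1h4c had 26.2, 23.7 and 25.4 CPM in 56Fe livers, against 33.8, 31.8 and 31.1 CPM in control livers (log2 fold change -0.36 ± 0.13, edgeR adjusted p 0.248). Hist1h4n had a log2 fold change of 0.96 ± 0.40 (edgeR adjusted p 0.302). Of the 5, Hist1h4n and Hist3h2a were higher in 56Fe livers, and Hist1h1e, Hist1h4c and Hist2h4 were lower. Libraries of 6 members lay below all controls, against 7.78% of all genes, and the median log2 fold change was -0.21, against -0.02 for all genes. The summed level was 355.5 ± 35.5 CPM in 56Fe and 375.4 ± 3.47 CPM in control livers.

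**Figure D4:**
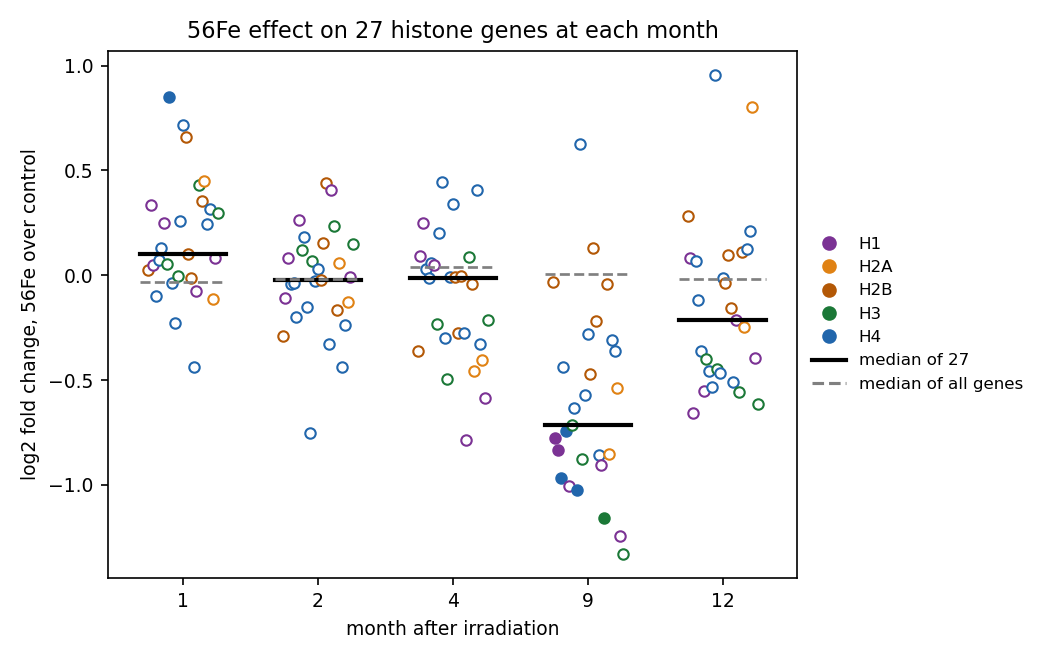
Log2 fold change of the 27 histone genes, 56Fe over control, at each month (points, one gene each, coloured by class and filled where the adjusted p is under 0.05), with the median of the 27 (black line) and of all 19685 genes tested (dashed grey line). The median of the 27 is -0.71 at month 9 and lies between -0.21 and 0.10 at the other months.

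Averaged over the 5 times, 2 members were lower in 56Fe livers and 0 higher (7.41%; 5.26% of all genes were called, 2.81% lower). Hist4h4, the H4 gene on chromosome 6, had a mean log2 fold change of -0.48 ± 0.13 (SE, edgeR adjusted p 0.0302), with values of -0.44, -0.33, -0.28, -0.86 and -0.51 at months 1, 2, 4, 9 and 12. It was below 0 at every time while passing at none. Hist1h4c had a mean log2 fold change of -0.22 ± 0.06 (SE, edgeR adjusted p 0.0305), with 0.13, -0.20, 0.06, -0.74 and -0.36 at the same times. Next came Hist1h3f (-0.35 ± 0.12, edgeR adjusted p 0.0864). Both calls were near the threshold: 0 members were called without control replicate 2 of month 1 or 56Fe replicate 3 of month 12, and 1 without control replicate 1 or 2 or 56Fe replicate 2 or 3 of month 2, 56Fe replicate 1 of month 1, control replicate 3 of month 4, control replicate 3 or 56Fe replicate 1 of month 9, or 56Fe replicate 2 of month 12. Upper quartile scaling, the Gm26917 covariate and months 4, 9 and 12 alone also gave 0, and no filter, the stricter filter and months 1 and 2 alone gave 1.

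The irradiation effect differed between the 5 times in 5 members (18.5%; 11% of all genes): Hist2h4, Hist1h4h, Hist1h4c, Hist1h1e and Hist1h3a. For Hist2h4 the group means over months 1, 2, 4, 9 and 12 were 6.67, 6.10, 5.25, 4.61 and 4.04 CPM in 56Fe livers, against 3.71, 5.40, 4.55, 7.18 and 5.55 CPM in control livers. The irradiated mean was the higher at the first 3 times and the lower at the last 2. For Hist1h4h the means were 30.2, 35.0, 53.1, 34.3 and 42.2 CPM in 56Fe livers, against 32.4, 36.1, 51.9, 67.2 and 40.3 CPM in control livers. Both arms stood close to each other except at month 9. Hist1h1e had 66.4, 64.3, 45.1, 25.1 and 30.2 CPM in 56Fe livers, against 64.3, 60.8, 37.9, 44.7 and 47.7 CPM in control livers. The count was 3 without control replicate 1 or 56Fe replicate 1 of month 9 and 10 without 56Fe replicate 2 of month 9. Hist1h3a lost its call with RLE scaling, without a low-count filter and when most single libraries were left out.

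**Figure D5:**
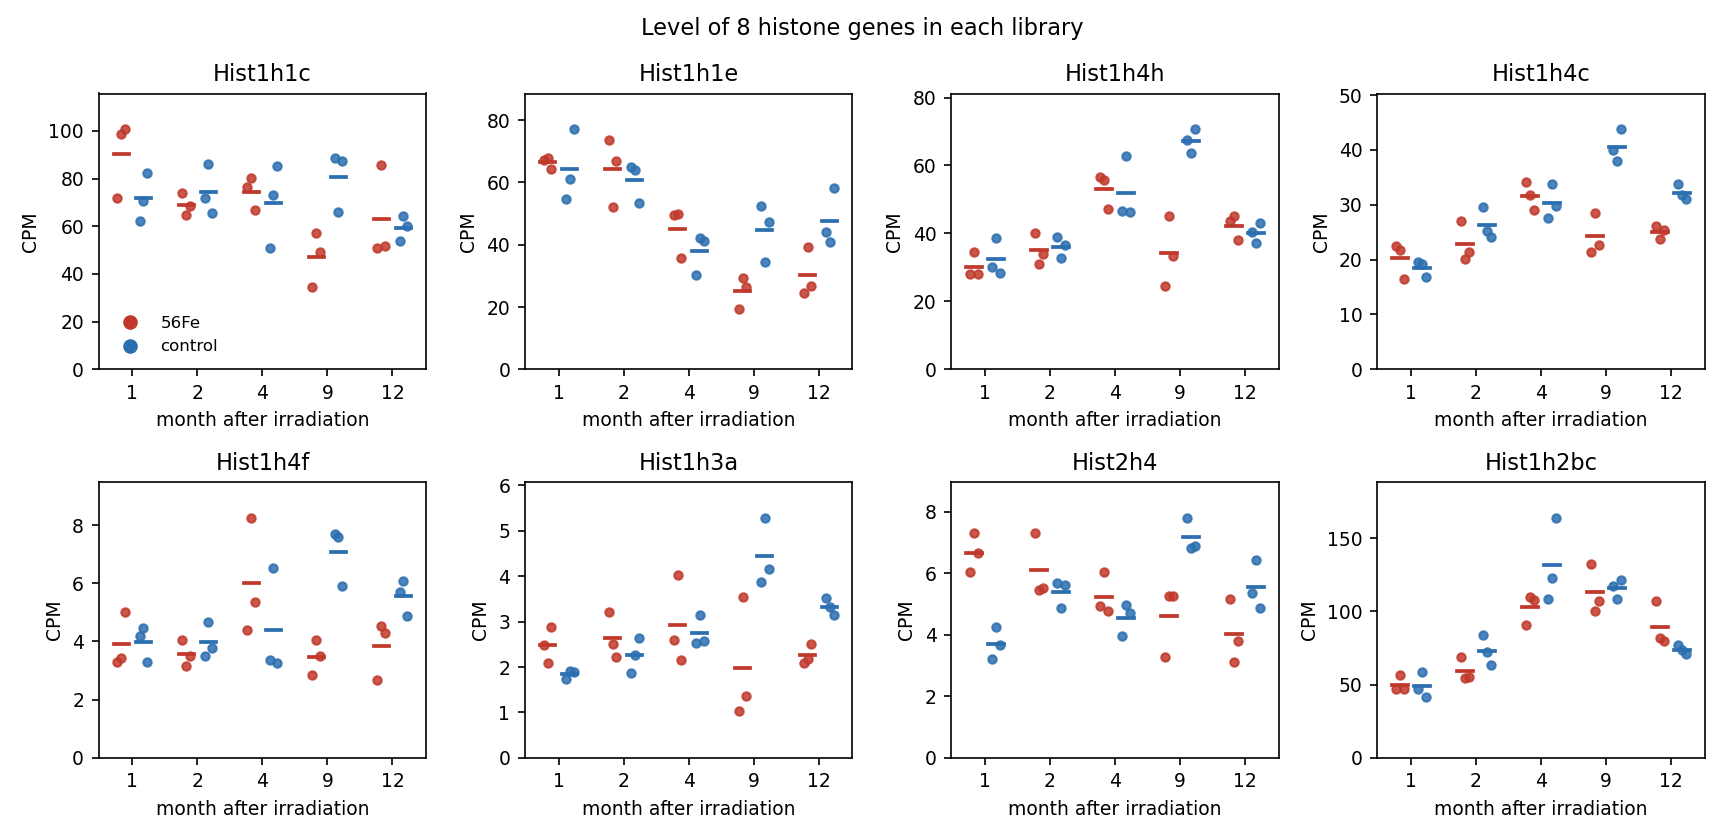
Level of the 6 histone genes that fell at month 9, of Hist2h4 and of Hist1h2bc (vertical axes, CPM, from 0) in each of the 30 libraries by month after irradiation; points are libraries, bars are group means, red is 56Fe and blue is control. For Hist1h4h the month 9 libraries lie at 24.5 to 45.1 CPM in 56Fe and at 63.6 to 70.6 CPM in control livers, and those of Hist1h2bc overlap.

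Over time, the edgeR F-test called 11 members in 56Fe livers (40.7%; 59% of all genes; 7 members without 56Fe replicate 1 of month 9) and 12 in control livers (44.4%; 58.3% of all genes), shares below those of all genes. The 8 smallest p-values in 56Fe livers belonged to Hist1h2bc, Hist1h1e, Hist1h4h, Hist1h4c, Hist1h1c, Hist1h4d, Hist1h1b and Hist2h4. In control livers they belonged to Hist1h2bc, Hist1h4c, Hist1h4h, Hist1h4a, Hist1h4d, Hist1h2bb, Hist2h4 and Hist1h3a. Hist1h2bc had 49.9, 59.6, 102.7, 113.1 and 89.6 CPM in 56Fe livers at months 1, 2, 4, 9 and 12, and 49.1, 73.0, 131.8, 115.7 and 73.8 CPM in control livers.

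Months 4 to 12 were set against months 1 and 2 over both arms, and 14 members differed, 10 higher and 4 lower (51.9%; 72.4% of all genes, of which 34% were higher and 38.4% lower). Since the composition of the libraries changed at the same point, these values describe the libraries and cannot be told apart from that split. The median of all genes was -0.12 in this comparison and -0.41 with upper quartile scaling. Hist1h2bc stood at 104.5 ± 23.4 CPM at months 4 to 12 (18 libraries) and 57.9 ± 12.3 CPM at months 1 and 2 (12 libraries), a log2 fold change of 0.84 ± 0.07 (SE, edgeR adjusted p 3.22e-11). The other large log2 changes upward were those of Hist1h4a (0.78), Hist1h2bb (0.68), Hist1h4h (0.50), Hist1h4c (0.47), Hist1h1a (0.40), Hist1h4f (0.34) and Hist1h3a (0.31). Hist1h1e went the other way, at 38.4 ± 10.8 CPM late and 63.9 ± 7.67 CPM early, a log2 fold change of -0.77 ± 0.09 (SE, edgeR adjusted p 9.87e-09). The remaining 3 that were lower were Hist1h1b (-0.87), Hist1h4j (-0.53) and Hist1h1c (-0.23). With the Gm26917 share as a covariate 0 members were called.

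Other histone and cell-cycle genes give the setting of the month 9 difference. Of 10 replication-independent histone genes tested, 3 fell and 0 rose in 56Fe livers at month 9, where 0.498% of all genes were called lower and 1.16% higher. Their median log2 fold change was -0.26. Most genes of this kind are polyadenylated and made outside S phase as well. The linker histone gene H1f0 had 88.8 ± 5.62 CPM in 56Fe and 120.4 ± 12.3 CPM in control livers (log2 fold change -0.44 ± 0.11, edgeR adjusted p 0.0459). H2afv, an H2A.Z-type variant gene, had 18.2 ± 1.20 and 26.9 ± 2.66 CPM in 56Fe and control livers (-0.57 ± 0.12, edgeR adjusted p 0.0159). H3f3a, which encodes the H3.3 variant, had 18.7 ± 0.668 and 25.98 ± 1.57 CPM in 56Fe and control livers (-0.48 ± 0.12, edgeR adjusted p 0.0310), while the second gene for that protein, H3f3b, had 188.3 ± 77.2 CPM in 56Fe and 146.7 ± 3.49 CPM in control livers (0.36 ± 0.26).

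Among 22 factors of histone mRNA 3′-end processing and decay, 1 fell and 0 rose at month 9, with a median log2 fold change of 0.09. It was Lsm10, a protein of the U7 particle, at 6.18 ± 1.23 CPM in 56Fe and 10.3 ± 0.450 CPM in control livers (-0.74 ± 0.19, edgeR adjusted p 0.0408). Slbp, which encodes the stem-loop binding protein, had 12.99 ± 0.862 CPM in 56Fe and 13.9 ± 1.13 CPM in control livers (-0.09 ± 0.13, edgeR adjusted p 0.790). Npat, which encodes the coactivator of histone gene transcription, had 15.8 ± 4.01 and 14.7 ± 1.22 CPM in 56Fe and control livers (0.10 ± 0.16, edgeR adjusted p 0.825). Of 20 histone chaperone genes, 0 fell and 1 rose (Spty2d1, 0.76 ± 0.18, edgeR adjusted p 0.0289).

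Of 27 S phase genes tested at month 9, edgeR called 0, and their median log2 fold change was -0.20, with 20 below 0. Their summed level was 197.8 to 226.5 CPM in 56Fe and 236.7 to 248.5 CPM in control livers, without overlap. Of 21 G2 and mitosis genes 0 were called, with a median of -0.43 and sums of 17.9 to 33.3 CPM in 56Fe and 27.5 to 52.4 CPM in control livers. The proliferation marker Mki67 had 3.97 ± 1.86 and 5.10 ± 2.89 CPM in 56Fe and control livers. Their part in the histone result was not tested.

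Markers of other cells moved with the month 9 groups in part. The 6 sinusoidal endothelial markers summed to 332.4 to 414.6 CPM in 56Fe and 466.9 to 526.4 CPM in control livers, with 0 of 6 called and 6 of 6 log2 fold changes below 0. The 8 erythroid precursor markers, of which 7 were in the table, summed to 224.3 to 242.5 CPM in 56Fe and 187.9 to 211.5 CPM in control livers, and the transferrin receptor gene Tfrc rose (log2 fold change 0.82 ± 0.21, edgeR adjusted p 0.0406), at 100.8 ± 7.47 CPM in 56Fe and 56.9 ± 17.7 CPM in control livers. The other 4 of the 5 erythroid markers tested had log2 fold changes below 0, and the median of the 5 was -0.75. Sums of 10 lymphocyte markers (30.1 to 56.1 CPM in 56Fe and 25.2 to 33.3 CPM in control livers), 7 Kupffer cell markers (269.6 to 746.7 CPM in 56Fe and 257.9 to 420.9 CPM in control livers) and 8 neutrophil markers (1.58 to 11.7 CPM in 56Fe and 1.78 to 2.15 CPM in control livers) overlapped, as did the hepatocyte sums. All 7 Kupffer cell and all 7 neutrophil markers tested had log2 fold changes above 0 (medians 0.49 and 0.60), and 0 were called. The month 9 56Fe libraries held 13359559 to 16569310 counts and the controls 17765173 to 20215995, and Malat1 took 0.331 ± 0.0702% of counts in 56Fe and 0.216 ± 0.0144% in control livers. The part of these differences in the histone result was not tested.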

How the data were processed

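Raw read counts per Ensembl gene, as deposited by the authors, were used for 30 liver libraries. Per the series text, total RNA was depleted of ribosomal RNA with Ribo-Zero, TruSeq libraries were read as paired 50-base reads, and STAR 2.5.3a counted reads per gene on GRCm38 with Gencode M14. That counting mode drops reads that map to several places, so near-identical histone copies lose reads. The strand setting is not given in the sources used here, so overlapping genes are read with caution. Gencode M21 gave symbols for 51633 of 51826 identifiers, and the 193 others held at most 0.0222% of a library's counts. Transcript windows of 50 bases were compared between genes, and RefSeq promoters (GRCm38.p6) were searched for motifs.

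Differences were tested with edgeR (version 4.0.16, R 4.3.3) after filterByExpr (minimum count 10, total 15), with TMM factors and a robust quasi-likelihood fit of all 30 libraries with 1 coefficient per group. Of the genes, 19685 were tested, all 27 members included. Adjusted p-values are Benjamini-Hochberg values over all genes, called under 0.05. Each tests a contrast against the spread between labelled biological replicates, estimated over all 30 libraries and not over the compared groups alone. The SE of a log2 fold change was taken from its F statistic. Members and gene lists were chosen with earlier results of these data known. In each comparison the text names called members (up to 8 higher and 8 lower, or the 8 smallest p-values for F-tests), the 3 smallest p-values where fewer than 3 were called, the leading member of each class at month 9, up to 2 called genes of each other list at month 9, and Slbp and Npat there. Other genes named were chosen after their values were seen. In the other lists, calls at the other single times included Cenpa (higher, month 2), Hat1 and Spty2d1 (lower, month 4), Ccne1 (lower, month 1), E2f8 (higher, month 2), Cdc45 (lower, month 4) and Tfrc (lower, month 4); some items are not reported here.

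Other settings were RLE and upper quartile factors, no filter, 1 CPM in 3 libraries, DESeq2 1.42.0, a replicate block, the Gm26917 share as a covariate, parts of the time course, a fit of the 6 libraries of a comparison, and omission of each library in turn. Replicate numbers were checked for pairing by correlating deviations from group means: r ranged from -0.40 to 0.44, and 9 of 15 pairs were above 0.1. All 3 pairs were above 0.1 at months 4 and 12. At month 4 all 3 numbers correlated best with their own number. At month 12 replicate 3 had an r of 0.26 with its own number and of up to 0.35 with another. Over all times, 9 of 15 numbers correlated best with their own, so these values do not establish that the numbers pair samples. The replicate block gave 0 called members at months 4 and 12, as without it. Of 30 library pairs compared, none were duplicates (chi-square per gene of 10.2 or more). On simulated data, used to test the procedure for the month 9 comparison (18307 genes), 48 of 91 genes with a 2-fold change and 77 of 95 with a 4-fold change were recovered. Counts limit precision: a member's count in a library ranged from 2 (Hist1h1b) to 2088 (Hist1h2bc). Figures were drawn with Python 3.11.15 and matplotlib 3.10.9.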

Additional observations from a re-analysis of the deposited data

Results flagged for a closer look

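In 5 histone genes the 56Fe effect differed between the 5 times by edgeR's F-test of that difference. The adjusted p was 0.00826 for Hist2h4, 0.0141 for Hist1h4h, 0.0164 for Hist1h4c, 0.0229 for Hist1h1e and 0.0497 for Hist1h3a. At months 1 and 9 the log2 fold changes, 56Fe over control, were 0.85 and -0.63 for Hist2h4 and -0.10 and -0.97 for Hist1h4h. With the Gm26917 share as a covariate 1 of the 27 members was called in this test.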

How the results depend on the processing

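The month 9 count of 6 called members was 5 with RLE factors and 5 with the replicate block, 6 with upper quartile factors, no filter, the stricter filter, DESeq2 and the Gm26917 covariate, and 0 in the 6 libraries alone, where 0 of all genes were called. The log2 fold changes of the 6 stayed below 0 in all these settings, with adjusted p-values up to 0.335 (Hist1h1c). Leaving out 1 library at a time gave 0 to 12 called members at month 9, with 0 without 56Fe replicate 1, 1 without control replicate 3, 2 without control replicate 1 or 56Fe replicate 3 and 3 without control replicate 2 of that month; it also gave 3 without control replicate 1 or 56Fe replicate 2 of month 1 or control replicate 3 of month 2. The ranges were 0 to 1 at month 1, 0 to 0 at months 2, 4 and 12, 0 to 3 for the mean effect, 3 to 10 for the effect differing between months, 7 to 14 for change over months in 56Fe and 10 to 14 in control livers, and 12 to 17 for late against early. For the summed level (log2) they were 0.07 to 0.20, -0.16 to 0.00, -0.19 to 0.01, -0.61 to -0.46 and -0.15 to -0.01 at months 1, 2, 4, 9 and 12. The shares of all genes called when 1 library was left out are not given here.

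With the replicate block, 12 members changed over months in 56Fe livers and 13 differed between late and early months; apart from these and the month 9 count of 5, the counts were as without it. Without a filter 0 members were called at month 1, 1 at month 12 and 1 for the mean effect, and the 6 libraries alone called 1 at month 4. For the mean effect upper quartile factors gave 0, the stricter filter 1, months 4, 9 and 12 alone 0 and months 1 and 2 alone 1. With the Gm26917 covariate the counts were 0 at month 1, 0 for the mean effect, 1 for its difference between months, 0 and 3 for change over months in 56Fe and control livers, and 0 for late against early. Within months 4, 9 and 12, 1 member changed over months in 56Fe livers and 4 in control livers. Within months 1 and 2 these counts were 0 and 4, and that for the effect differing between months was 0.

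For late against early, upper quartile factors turned Hist1h4d to -0.0675 (log2), and the Gm26917 covariate turned Hist1h1c to 0.42, Hist1h1e to 0.56, Hist1h4f to -0.41, Hist1h4a to -1.08, Hist1h2bb to -0.0573, Hist1h1a to -1.04 and Hist1h3a to -0.08; the cause was not tested. Over members with at most 10% shared windows, whose counts were mostly those of H1 genes, the log2 difference of the summed level was 0.31 at month 1 and -0.79 at month 9. Without Hist1h2bc, a setting chosen after seeing the data, it was -0.73 at month 9 and -0.18 at month 12.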
